A study of Mus musculus with 14 samples.

Results

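Transforming growth factor β (TGF-β) signalling was followed through 10 genes in mouse skin mast cells: the ligand Tgfb1, the receptors Tgfbr1, Tgfbr2 and Tgfbr3, the signal carriers Smad2, Smad3 and Smad4, the inhibitory Smad7, and the co-repressors Skil and Tgif1. They were chosen by name as the core of the pathway, because TGF-β is known to switch on the mucosal type proteases of mast cells. The deposited table held 55487 genes, each of the 10 symbols matched 1 gene identifier, and all 10 passed the filter on low counts that left 21014 genes to test.

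The 14 RNA sequencing libraries were made from mast cells sorted from mouse ears. Resident mast cells of untreated mice gave libraries 1 to 5 and those of mice treated with MC903 gave libraries 6 to 10, while libraries 11, 13, 14 and 15 came from treated mice and hold what the labels call bone marrow mast cells. MC903 is calcipotriol, a vitamin D analogue that brings about a dermatitis resembling atopic dermatitis when applied to mouse skin. The protocol names resident and integrin β7-positive cells only, so the bone marrow libraries were taken to be the integrin β7-positive sort. Bone marrow and untreated libraries differ in both cell kind and treatment, and their comparison cannot tell these apart. Each library was a pool of at most 100 cells from both ears, and strain, age, dose and the animals behind each library were not given in the sources used here, so p-values measure the spread between these libraries, which may be partly technical.

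TGF-β is secreted in a latent form and, once released, brings the type II receptor Tgfbr2 and the type I receptor Tgfbr1 together at the cell surface, with Tgfbr3 (betaglycan) presenting the ligand. The activated type I receptor phosphorylates Smad2 and Smad3, which join Smad4 and enter the nucleus to regulate genes. Smad7 blocks the receptor, while Skil (SnoN) and Tgif1 hold back transcription at the sites where Smads bind. In cultured mast cells the pathway is known for inducing the mucosal proteases Mcpt1 and Mcpt2 and the integrin subunit Itgae.

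Total counts ran from 13068078 to 31781926 per library, and mitochondrial genes took 1.22% to 1.70% of them in untreated resident, 2.39% to 3.96% in MC903 resident and 2.14% to 4.24% in bone marrow libraries. Genes with at least 1 count numbered 34560 and 35246 in MC903 resident libraries 7 and 8 and 32814 in bone marrow library 15, against 16285 and 16025 in bone marrow libraries 11 and 13 and 19817 to 28790 in the other 9. Libraries 7 and 8 also had the highest TMM scaling factors, 1.24 and 1.19, and the part of these differences in the results was not tested. All 10 mast cell markers (Kit, Fcer1a, Ms4a2, Cpa3, Tpsb2, Mcpt4, Cma1, Hdc, Gata2 and Mitf) exceeded 10 CPM (counts scaled to library size) in every group. The markers of macrophages and dendritic cells summed to 3.31 to 8.65 CPM in untreated resident, 9.41 to 23.0 CPM in MC903 resident and 3.92 to 13.3 CPM in 3 bone marrow libraries, but to 4740 CPM in bone marrow library 15. There, 5 of the 7 markers stood above 10 CPM (Adgre1, Csf1r, C1qa, C1qb and Cd14), while Itgax and Flt3 were at 2.63 and 1.26 CPM. Basophil markers summed to 1540 CPM in bone marrow library 11 and to 293 to 820 CPM in the other 13 libraries. In library 11 Mcpt8 made up 976 CPM of that sum, while Cd200r3 (525 CPM) was within and Itga2 (35.9 CPM) below the range of the resident libraries, and Prss34 was at 4.76 CPM. T cell markers reached 31.8 CPM in library 14. Keratinocyte, neutrophil and eosinophil markers summed to 12.3 CPM or less in every library, fibroblast markers to at most 31.9 CPM and endothelial markers to at most 39.9 CPM. Platelet and megakaryocyte markers summed to 279 to 1320 CPM, nearly all of it Itga2b except in library 15, where Pf4 was at 928 CPM, Itga2b at 394 CPM, Gp9 at 0.253 CPM and Ppbp at 0. In pooled cells of this kind, fewer cells of a type and less RNA per cell cannot be told apart.

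Tgif1 was the one member called as different between groups, and Tgfbr2 the most abundant member, so the stretches of genome before their starts are shown. Each run is the 250 bases before a RefSeq transcript start on GRCm38.p6, 5′ to 3′ on the gene's strand, with capitals marking CAGAC, the core of the CAGA box that Smad3 and Smad4 bind, and TGTCA, the core that TGIF proteins bind, on either strand. Tgif1 has 5 RefSeq starts, of which the outermost and the next are given; the counts are per gene and do not show which start was used.
Tgif1, first start (chr17:70853533-70853782, minus strand): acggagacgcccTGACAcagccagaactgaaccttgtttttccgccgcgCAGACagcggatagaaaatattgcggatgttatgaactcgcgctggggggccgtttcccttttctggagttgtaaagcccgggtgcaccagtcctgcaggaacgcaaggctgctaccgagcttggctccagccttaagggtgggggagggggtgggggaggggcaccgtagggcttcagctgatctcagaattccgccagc
Tgif1, second start (chr17:70851735-70851984, minus strand): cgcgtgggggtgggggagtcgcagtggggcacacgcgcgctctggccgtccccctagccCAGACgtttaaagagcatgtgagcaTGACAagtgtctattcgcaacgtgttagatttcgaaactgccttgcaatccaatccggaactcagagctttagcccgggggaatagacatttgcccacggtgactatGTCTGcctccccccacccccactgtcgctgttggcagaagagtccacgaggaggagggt
Tgfbr2 (chr9:116175364-116175613, minus strand): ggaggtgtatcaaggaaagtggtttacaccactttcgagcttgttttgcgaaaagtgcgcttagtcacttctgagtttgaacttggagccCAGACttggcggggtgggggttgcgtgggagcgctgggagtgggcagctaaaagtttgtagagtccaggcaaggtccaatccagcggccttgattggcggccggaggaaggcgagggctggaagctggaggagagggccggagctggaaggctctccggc

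The first Tgif1 window held 1 CAGAC and 1 TGTCA, the second held 2 CAGAC and 1 TGTCA, and the Tgfbr2 window held 1 CAGAC. Among all 32851 RefSeq windows of this length, 42.2% held CAGAC and 40.0% held TGTCA on either strand, so such matches are common. The palindrome GTCTAGAC (0.167% of windows) was in none of the 10 windows used for 5 members, and GGCGCC (9.59% of windows) was in 1, before the first start of Tgfbr1. No protein or binding was measured, and a match is only a match of letters.

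**Figure D1:**
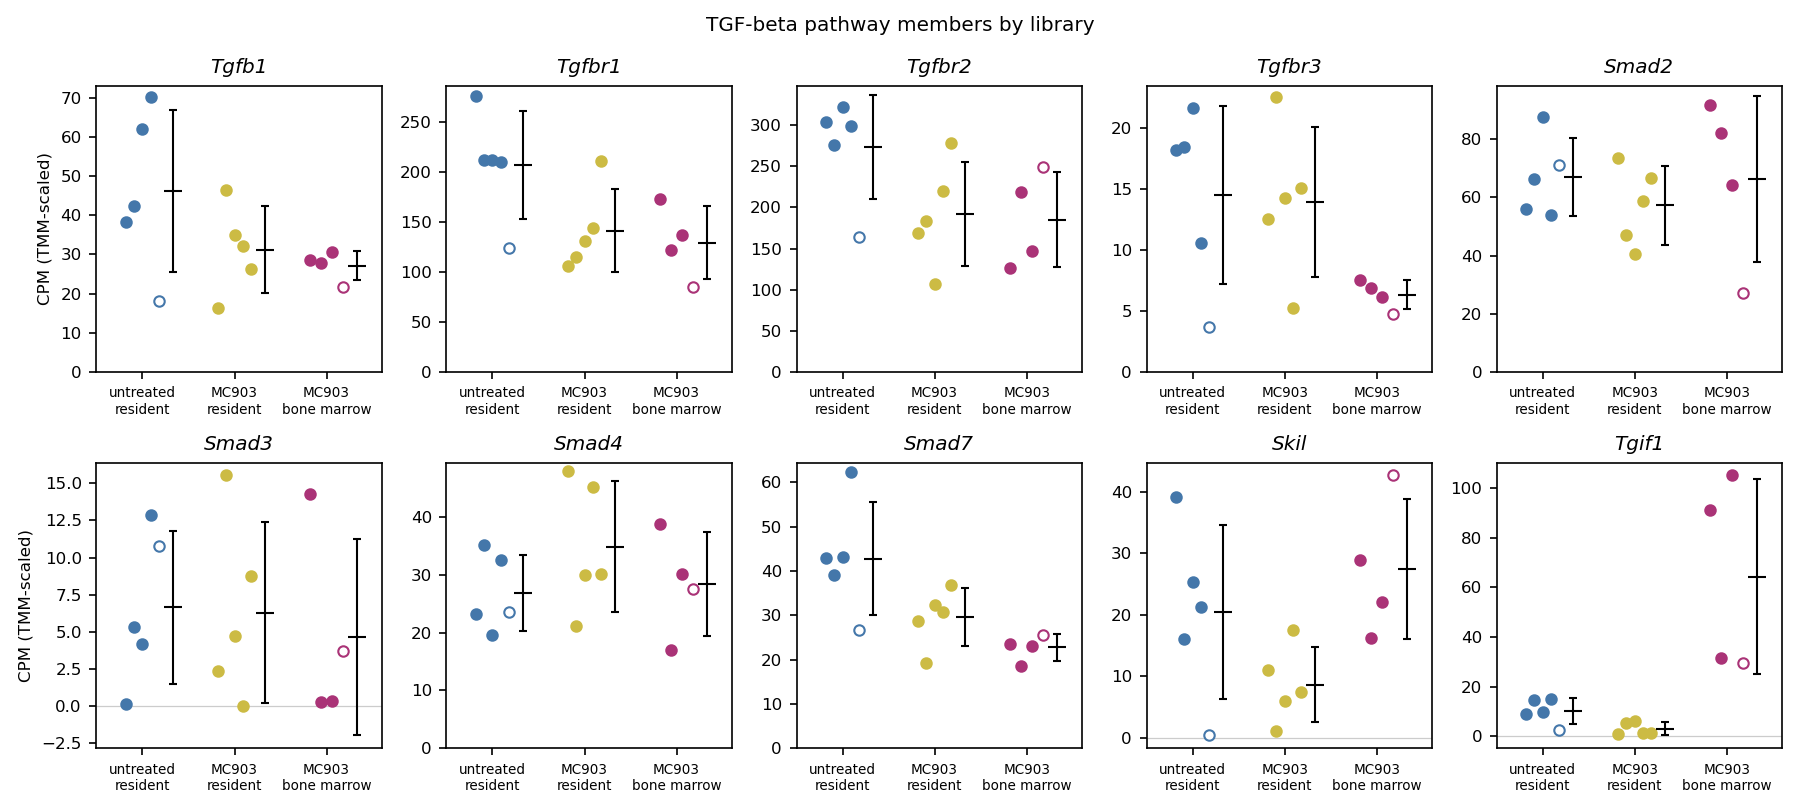
Level of each member in CPM (vertical axis, scaled by TMM factors) in untreated resident, MC903 resident and MC903 bone marrow libraries. Each point is a library, open points are untreated library 5 and bone marrow library 15, and bars show the mean and SD (n = 5, 5 and 4); the bone marrow points lie above all others for Tgif1, and for the other members the groups overlap except bone marrow against untreated for Smad7.

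Tgfb1, which encodes the ligand (ENSMUSG00000002603.15, GRCm38 chromosome 7, 25687002 to 25705077, plus strand), was present in every library. It was at 38.3, 42.3, 61.9, 70.3 and 18.02 CPM in untreated libraries 1 to 5, at 16.3, 46.4, 34.8, 32.03 and 26.3 CPM in MC903 resident libraries 6 to 10, and at 28.5, 27.8, 30.6 and 21.8 CPM in bone marrow libraries 11, 13, 14 and 15. The highest values were untreated, but library 5 of that group lay below all bone marrow libraries, and the SD was 20.6 CPM in untreated and 3.78 CPM in bone marrow cells. The log2 difference was -0.57 ± 0.35 (SE) for MC903 resident against untreated cells and -0.77 ± 0.37 for bone marrow against untreated cells, and neither passed the test (quasi-likelihood test of edgeR, p adjusted over all genes by Benjamini and Hochberg's method and called under 0.05; adjusted p = 0.577 and 0.242).

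The signalling receptors were the most abundant members. Tgfbr1, the type I receptor kinase (ENSMUSG00000007613.15, chromosome 4, 47353222 to 47414931, plus strand), measured 276, 211, 211, 209.5 and 124 CPM in untreated cells. MC903 resident cells held 106, 115, 131, 143 and 210.4 CPM of it, and bone marrow cells 173, 122, 137 and 85.0 CPM. Apart from library 5, the untreated libraries stood at 209.5 CPM or more, a level that among the treated libraries only MC903 resident library 10 reached. Tgfbr1 was 1.46-fold lower in MC903 resident cells (log2 -0.55 ± 0.24, edgeR adjusted p = 0.315) and 1.60-fold lower in bone marrow cells (log2 -0.68 ± 0.26, edgeR adjusted p = 0.124) than in untreated cells, short of the threshold in both. Without untreated library 5, edgeR called the difference between bone marrow and untreated cells (log2 -0.81, adjusted p = 0.0459).

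Tgfbr2, the type II receptor that binds the ligand first (ENSMUSG00000032440.13, chromosome 9, 116084293 to 116175360, minus strand), measured 304.5, 276, 322, 299 and 164 CPM in untreated cells. It was at 169.5, 184, 107, 220.5 and 279 CPM in MC903 resident cells and at 126, 218.5, 147 and 249 CPM in bone marrow cells. As for Tgfbr1, library 5 was far below the other untreated libraries and inside the range of the treated groups. The log2 difference from untreated cells was -0.51 ± 0.25 in MC903 resident and -0.56 ± 0.27 in bone marrow cells (edgeR adjusted p = 0.420 and 0.233). Library 15, which carried the macrophage transcripts, had the highest Tgfbr2 and the lowest Tgfbr1 of the bone marrow group; the part of other cells in these values was not tested.

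The receptors' balance varied as much within as between groups. Per length (RPKM, reads scaled for gene length and depth), the ratio of Tgfbr2 to Tgfbr1 ran from 0.881 to 1.22 in untreated, 0.651 to 1.28 in MC903 resident and 0.581 to 2.34 in bone marrow libraries. The value of 2.34 was that of library 15, and the other bone marrow libraries were at 0.581, 1.43 and 0.857.

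Tgfbr3, the co-receptor betaglycan (ENSMUSG00000029287.14, chromosome 5, 107106570 to 107289629, minus strand), was far scarcer. Its level was 18.2, 18.5, 21.6, 10.6 and 3.69 CPM in untreated, 12.5, 22.5, 14.3, 5.23 and 15.1 CPM in MC903 resident and 7.51, 6.89, 6.17 and 4.75 CPM in bone marrow cells. The bone marrow libraries sat close together at the low end, overlapped by library 5 of the untreated and library 9 of the MC903 resident group. With log2 differences of -1.14 ± 0.58 from MC903 resident and -1.20 ± 0.58 from untreated cells, the gene did not pass the test (edgeR adjusted p = 0.319 and 0.245). It shares 297 exonic bases with the predicted gene Gm43422 on the same strand, so some of its reads may be uncertain.

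Of the Smads that carry the signal, Smad2 and Smad4 were well covered in every library, and Smad3 was scarce and uneven. Smad2 (ENSMUSG00000024563.16, chromosome 18, 76241580 to 76310963, plus strand) measured 56.1, 66.5, 87.5, 54.0 and 71.1 CPM in untreated, 73.4, 46.9, 40.5, 58.7 and 66.8 CPM in MC903 resident and 92.0, 82.1, 64.3 and 27.1 CPM in bone marrow cells. Library 15 was the lowest of all 14 for this gene. The 3 log2 differences lay between -0.23 and 0.21 with SEs of 0.28 to 0.30, and edgeR adjusted p-values ran from 0.768 to 0.990.

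Smad4, the shared partner of Smad2 and Smad3 (ENSMUSG00000024515.13, chromosome 18, 73639009 to 73703780, minus strand), measured 23.3, 35.1, 19.6, 32.5 and 23.6 CPM in untreated and 47.9, 21.2, 30.0, 45.2 and 30.1 CPM in MC903 resident cells. Bone marrow libraries had 38.8, 17.0, 30.2 and 27.5 CPM of it. Its fitted difference between MC903 resident and untreated cells was above 0 (log2 0.38 ± 0.32, edgeR adjusted p = 0.740), with libraries 6 and 9 above every untreated library and the other 3 inside the untreated range.

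Smad3 (ENSMUSG00000032402.12, chromosome 9, 63646767 to 63757994, minus strand) was low and uneven in all groups. It was at 0.113, 5.31, 4.19, 12.9 and 10.8 CPM in untreated, 2.39, 15.5, 4.69, 0 and 8.74 CPM in MC903 resident and 14.3, 0.277, 0.340 and 3.69 CPM in bone marrow libraries. Library 1 held 2 reads of it and library 9 none, both at or under the floor of 3 counts used here, while bone marrow library 11 held 342 reads. Within each group the values thus ran from near 0 to above 10 CPM, and the log2 differences of -0.085, -0.43 and -0.52 had SEs of 1.24 to 1.32 (edgeR adjusted p = 0.884 to 0.994). Leaving out 1 library, the difference between bone marrow and untreated cells ran from -2.23 to -0.12. Per length, Smad3 made up 0.318% to 27.4% of Smad2 plus Smad3 in untreated, 0% to 34.4% in MC903 resident and 0.532% to 19.7% in bone marrow libraries.

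Smad7, the inhibitory Smad that the pathway itself induces in many cells (ENSMUSG00000025880.11, chromosome 18, 75367529 to 75395935, plus strand), had its lowest mean in bone marrow cells. Untreated libraries held 42.9, 39.1, 43.2, 62.3 and 26.6 CPM, MC903 resident libraries 28.8, 19.2, 32.4, 30.9 and 36.9 CPM and bone marrow libraries 23.5, 18.7, 23.2 and 25.7 CPM. All 4 bone marrow libraries lay below all 5 untreated libraries, by a narrow margin at library 5, whereas the MC903 resident libraries overlapped both. The mean was 1.88-fold lower in bone marrow than in untreated cells (log2 -0.91 ± 0.31), which missed the threshold (edgeR adjusted p = 0.0897). It was called in 3 of 18 alternatives: by the DESeq2 Wald test (adjusted p = 0.0125), by edgeR without library 5 (adjusted p = 0.0370) and with libraries 5 and 15 both left out. Library 5 was the lowest untreated library for this gene. Per length, Smad7 was at 0.914 to 1.81 times the level of Smad4 in untreated, 0.495 to 1.01 times in MC903 resident and 0.498 to 0.899 times in bone marrow libraries.

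Skil encodes SnoN, a co-repressor that binds Smads and is degraded when the pathway is active (ENSMUSG00000027660.16, chromosome 3, 31095058 to 31122577, plus strand). It was at 39.2, 16.0, 25.4, 21.2 and 0.356 CPM in untreated cells, where library 5 had 8 reads. MC903 resident libraries 7 to 10 held 1.04, 5.98, 17.4 and 7.39 CPM, with library 6, at 212 reads, between the last 2 of these values, and bone marrow libraries held 29.0, 16.2, 22.0 and 42.7 CPM. All bone marrow libraries but library 13 were above all MC903 resident libraries, and library 15 was the highest. The bone marrow mean of Skil was 3.20 times the MC903 resident mean (log2 1.68 ± 0.77), which did not pass the test (edgeR adjusted p = 0.262, and 0.222 without library 15). Its log2 difference between MC903 resident and untreated cells was -1.25 ± 0.74 (edgeR adjusted p = 0.549).

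Tgif1 encodes a homeobox protein that joins Smad complexes and recruits histone deacetylases to them (ENSMUSG00000047407.17, chromosome 17, 70844205 to 70853546, minus strand), and it was the member that changed. It was at 9.09, 14.8, 9.99, 15.2 and 2.40 CPM in untreated libraries 1 to 5. In MC903 resident libraries 6 to 10 it was at 0.830, 5.48, 6.30, 1.16 and 1.43 CPM, from 16 to 98 reads. Bone marrow libraries 11, 13, 14 and 15 held 91.1, 31.4, 105 and 29.7 CPM, from 588 to 2470 reads. Every bone marrow library was above every resident library of either kind, with libraries 11 and 14 about level with each other and libraries 13 and 15 lower. Among the resident libraries, 3 of the 5 treated ones (6, 9 and 10) were below all untreated ones.

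The MC903 resident mean of Tgif1 was 3.04 ± 2.63 CPM (SD, n = 5) and the bone marrow mean 64.3 ± 39.4 CPM (SD, n = 4), a rise of 21.2-fold (log2 4.41 ± 0.68 SE, edgeR adjusted p = 0.000871). Against the 10.3 ± 5.20 CPM (SD, n = 5) of untreated cells the rise was 6.24-fold (log2 2.64 ± 0.63 SE, edgeR adjusted p = 0.0114). Both calls held in all 18 alternatives tried for each, with adjusted p-values up to 0.00935 and 0.0433. Without library 15 and its macrophage transcripts the log2 differences were 4.65 and 2.88 (edgeR adjusted p = 0.000187 and 0.00546). Between MC903 resident and untreated cells Tgif1 had a log2 difference of -1.77 ± 0.60, short of the threshold (edgeR adjusted p = 0.151). That comparison was called with no filter on low counts (log2 -1.83, adjusted p = 0.0108).

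**Figure D2:**
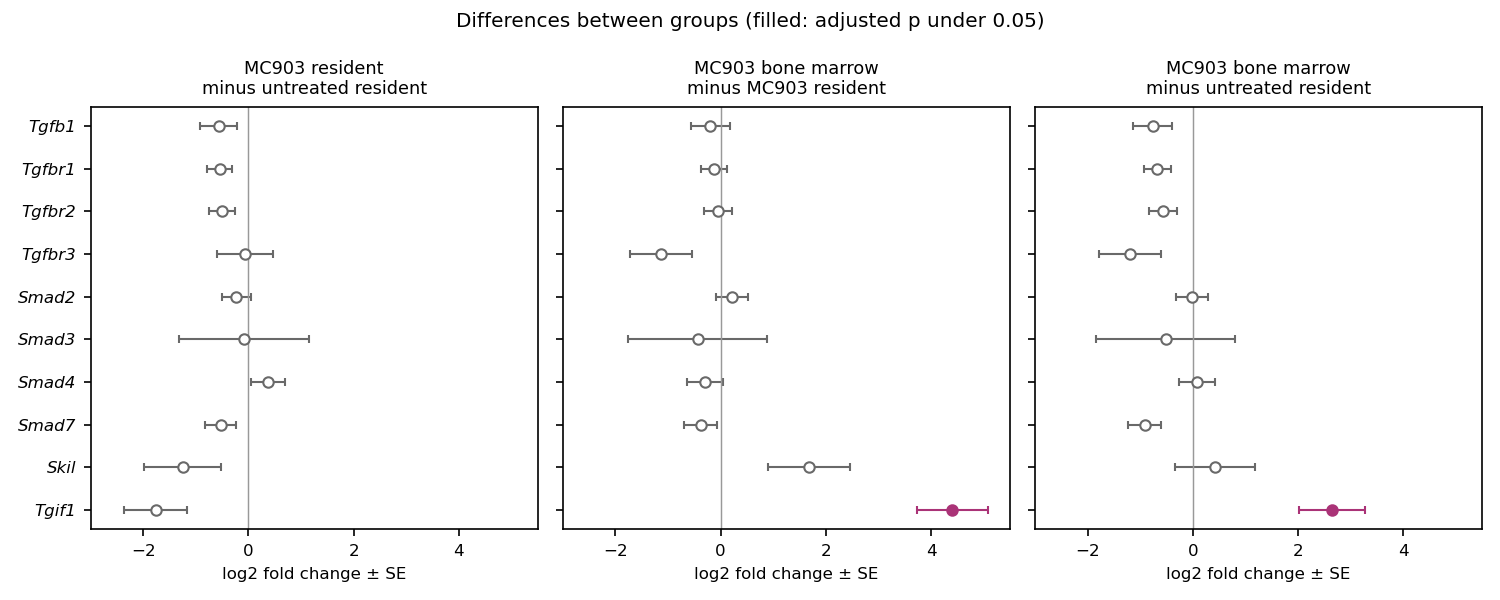
Log2 fold change of each member with its SE (horizontal axis) in the 3 comparisons, from the edgeR fit to all 14 libraries, with filled points for an adjusted p under 0.05. Tgif1 is filled in both comparisons of bone marrow cells, at 4.41 and 2.64, and no member is filled for MC903 resident against untreated cells.

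The calls among the 10 genes are set here beside those among all genes. None of the 10 was called between MC903 resident and untreated cells by edgeR (2 had an unadjusted p under 0.05, Tgfbr1 and Tgif1), where 2.25% of all genes tested were called, 0.571% higher and 1.68% lower. That split over all genes, 120 higher and 353 lower, was 207 and 294 with DESeq2 size factors, 251 and 266 with TMM factors from genes of at least 10 CPM, 661 and 697 by limma, and turned to 595 higher and 467 lower by the DESeq2 Wald test. DESeq2 called none and limma with voomWithQualityWeights called 1, Tgfbr1 (log2 -0.71, adjusted p = 0.0435). Between bone marrow and MC903 resident cells 1 of 10 was called, Tgif1 as higher, against 2.27% of all genes, 1.32% higher and 0.952% lower. There the split of 277 higher and 200 lower turned to 167 and 242 with DESeq2 size factors, 178 and 254 with TMM factors from genes of at least 10 CPM, 444 and 1266 by the Wald test, 672 and 1345 by limma, and 289 and 444 without libraries 5 and 15. Between bone marrow and untreated cells it was again 1 of 10, against 6.87% of all genes, 3.49% higher and 3.37% lower, a split of 734 and 709 that became 616 and 1057 without libraries 5 and 15. The libraries of the groups did not overlap for 0, 1 and 2 members in the 3 comparisons (Tgif1, then Tgif1 and Smad7), against 5.33%, 8.29% and 10.4% of all genes.

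In MC903 resident against untreated cells 9 of 10 members had a fitted difference below 0, with a median log2 of -0.52. With DESeq2 size factors, with TMM factors from genes averaging 10 CPM or more and with the length offset, Tgfbr3 and Smad3 turned above 0, which left 7 of 10 below 0 and medians of -0.40, -0.35 and -0.32. In the main scaling, over the 8195 genes that averaged 10 CPM or more the median was -0.16 and 61.3% were below 0, and over all 21014 genes tested the median was 0.24 and 40.0% were below 0. Untreated library 5 was the lowest of its group for 7 of the 10 members and the highest for none. Bone marrow library 15 was the lowest of its group for 5 members and the highest for 3. With both libraries left out, a choice made after these values were seen, Tgif1 (log2 -2.07, adjusted p = 0.0439) and Tgfbr1 (-0.75, 0.0448) were called as lower in MC903 resident than in untreated cells. In bone marrow against untreated cells, Smad7 (-1.26, 0.0251), Tgfbr1 (-0.81, 0.0379) and Tgfbr2 (-1.04, 0.0158) were then called as lower, beside Tgif1 as higher (2.48, 0.0165). Because library 5 was set aside for its low values of these same genes, those further calls are a description.

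The order of the members by length-scaled level showed where Tgif1 moved. Tgfbr2 and Tgfbr1 led in all 3 groups, at 33.4 ± 7.72 and 31.6 ± 8.27 RPKM (SD, n = 5) in untreated, 23.4 ± 7.78 and 21.6 ± 6.32 RPKM (SD, n = 5) in MC903 resident and 22.6 ± 7.11 and 19.8 ± 5.59 RPKM (SD, n = 4) in bone marrow cells. The 2 receptors overlapped each other in each group and, in both resident groups, lay above every other member in all libraries. In untreated cells Smad7, Tgfb1, Smad2 and Smad4 followed at 9.47, 9.16, 7.63 and 7.23 RPKM, overlapping one another, and then Tgfbr3, Skil, Tgif1 and Smad3 at 2.22, 2.11, 1.83 and 1.20 RPKM. Tgif1 was last of the 10 in MC903 resident cells, at 0.541 ± 0.467 RPKM, above 31.5% of all genes tested. It was the third in bone marrow cells, at 11.4 ± 7.004 RPKM (SD, n = 4) and above 83.3% of all genes, and there overlapped Tgfbr1 before it and Smad4 after it.

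Ski, the relative of Skil, was lower in bone marrow than in untreated cells, and Tgif1 held more of the co-repressor total in the bone marrow libraries. Tgif1 made up 2.79% to 14.2% of the summed length-scaled level of Tgif1, Tgif2, Ski and Skil in untreated, 1.35% to 10.7% in MC903 resident and 32.2% to 70.2% in bone marrow libraries. The shares in libraries 11, 13, 14 and 15 were 63.2%, 42.5%, 70.2% and 32.2%, so that all 4 lay above all resident libraries. Of Tgif1 plus Skil alone, the share of Tgif1 overlapped between the groups. It ran from 28.5% to 92.1% in untreated, 10.3% to 90.1% in MC903 resident and 54.5% to 89.2% in bone marrow libraries. Ski was at 76.5, 75.6, 71.4, 118 and 81.0 CPM in untreated cells, 48.9, 43.8, 82.3, 40.5 and 94.4 CPM in MC903 resident cells and 35.8, 32.8, 31.5 and 37.2 CPM in bone marrow cells. It fell 2.46-fold from untreated to bone marrow cells (log2 -1.30 ± 0.28, edgeR adjusted p = 0.00569). Against MC903 resident cells the log2 difference of Ski was -0.85 ± 0.28, without overlap of libraries, and did not pass the test (edgeR adjusted p = 0.120).

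Tgif2, the close relative of Tgif1, was singled out after its values were seen. It was at 2.82, 2.61, 1.76, 0.662 and 1.11 CPM in untreated and 0, 0.635, 3.73, 0.291 and 3.28 CPM in MC903 resident cells. In the bone marrow libraries the counts were 0, 0, 0 and 1, under the floor of 3 counts. Set at that floor, averaged over its libraries, the bone marrow level was 14.1-fold under the untreated mean and 12.5-fold under the MC903 resident mean. MC903 resident library 6 was also at 0, so that group overlapped the bone marrow libraries, and libraries 8 and 10 carried most of its mean. The floor covers counting error only, and bone marrow libraries 11, 13 and 14 had the fewest genes with a count in the series. Neither difference passed the edgeR test with all 3 groups fitted (adjusted p = 0.0554 and 0.105), and both were called by the DESeq2 Wald test (adjusted p = 0.000494 and 0.00129). The difference of Tgif2 from untreated cells was also called by limma (adjusted p = 0.0114) and by edgeR with only those 2 groups fitted (adjusted p = 0.0224).

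**Figure D3:**
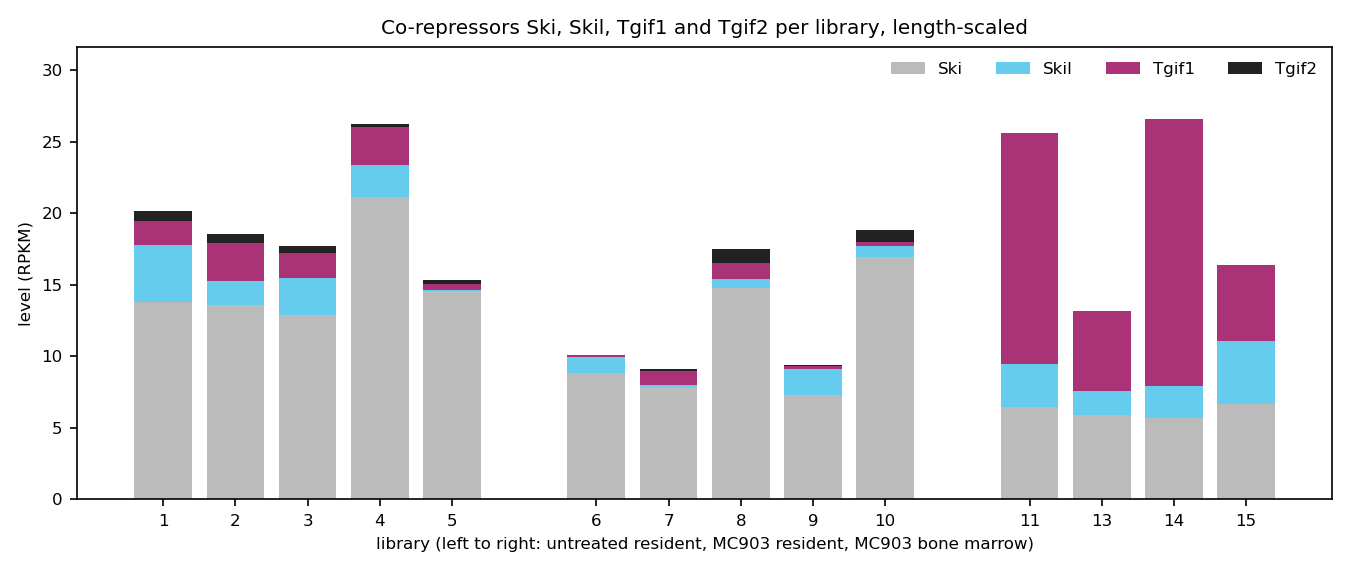
Length-scaled level (RPKM, vertical axis) of Ski, Skil, Tgif1 and Tgif2 stacked for each library (horizontal axis). The Tgif1 segment holds 32.2% to 70.2% of the bar in bone marrow libraries and at most 14.2% in resident libraries.

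The other genes of the pathway were followed through a list of 73, of which 66 could be tested after the filter on low counts. The comparisons share groups, so each is given on its own. Of the 66, edgeR called 2 (3.03%, against 2.25% of all genes) between MC903 resident and untreated cells, both lower, with a list median of 0.034 on the log2 scale. It called 3 (4.55%, against 2.27% of all genes) between bone marrow and MC903 resident cells, all higher (median -0.19). Between bone marrow and untreated cells it called 11 (16.7%, against 6.87% of all genes), 6 higher and 5 lower (median -0.56). The medians of all genes tested were 0.24, -0.28 and -0.14 in the same order. With the filter at a mean of 10 CPM, edgeR called 1772 of 8209 genes between bone marrow and untreated cells. The share called among all genes thus depends on the level of the genes tested, and its part in the list shares was not tested.

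Ligands and the proteins that release them had no call among 15 genes tested between MC903 resident and untreated cells. Nrros, which anchors latent TGF-β at the surface of myeloid cells and had the highest length-scaled level of the list over all libraries (Furin was higher in the bone marrow group), was at 259 against 234 CPM there (log2 0.15 ± 0.20, edgeR adjusted p = 0.870). Furin, the protease that cleaves the TGF-β precursor, was the one call between bone marrow and MC903 resident cells. It was at 702, 1142, 1439 and 737 CPM in bone marrow libraries, 298, 338, 216, 360.5 and 398 CPM in MC903 resident and 487, 300.4, 436.5, 354 and 120 CPM in untreated libraries, with every bone marrow library above every resident one. Furin rose 3.12-fold from MC903 resident (log2 1.64 ± 0.30, edgeR adjusted p = 0.00427) and 2.96-fold from untreated to bone marrow cells (log2 1.57 ± 0.30, edgeR adjusted p = 0.00223).

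Against untreated cells, Nrros and Thbs1 were also called as higher in bone marrow cells. Nrros rose 1.83-fold to 427 CPM (edgeR adjusted p = 0.0152, but 0.0828 without library 13 and 0.0555 without library 14). Thbs1, thrombospondin 1, which can activate latent TGF-β, was at 0, 0, 125 and 211 CPM in libraries 11, 13, 14 and 15 and at 0 to 0.224 CPM in untreated libraries. It was thus high in 2 of the 4 bone marrow libraries and listed at 0 in the others, and its call (edgeR adjusted p = 0.0282) was lost with limma (0.429), with no filter on low counts (0.0639), without library 14 (0.0607) and without each of the 5 untreated libraries in turn (0.0545 to 0.0705). With libraries 5 and 15 both left out it was lost as well (0.0620).

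None of the 12 other receptors of the superfamily and none of the 16 anchors, turnover enzymes and phosphatases was called by edgeR in any comparison. Bambi, a pseudoreceptor that dampens the pathway and had the highest length-scaled level of the receptor list, was at 147, 8.74, 38.8, 2.74 and 9.75 CPM in untreated, 64.3, 4.21, 7.46, 6.11 and 2.27 CPM in MC903 resident and 16.0, 22.1, 0.0851 and 0.353 CPM in bone marrow libraries, with a single high library in each resident group and 2 of the 4 libraries high in the bone marrow group (edgeR adjusted p = 0.833, 0.837 and 0.523 in the 3 comparisons). Strap, a receptor-associated protein of the turnover list, was at means of 112, 83.8 and 78.2 CPM in untreated, MC903 resident and bone marrow cells (edgeR adjusted p = 0.330 to 0.898).

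Ski, Ep300 and Ncor1, partners of the Smads, were lower in bone marrow than in untreated cells, which differ in both cell kind and treatment. Of 11 other Smads, co-repressors and co-activators tested, these 3 were called (27.3%), and none as higher, beside 6.87% of all genes called and 3.37% called as lower. Ep300, an acetyltransferase that assists Smads, was at 13.2, 18.9, 20.6 and 29.7 CPM in bone marrow against 36.2 to 62.4 CPM in untreated libraries (log2 -1.31 ± 0.31, edgeR adjusted p = 0.0122, but 0.0511 without library 11 and 0.0581 with no filter on low counts). Ncor1, a co-repressor that Ski and Skil recruit, was at 197, 132.5, 140 and 89.5 CPM in bone marrow against 236 to 337 CPM in untreated libraries (log2 -1.06 ± 0.22, edgeR adjusted p = 0.00347). In neither case did the groups overlap. No gene of this list was called by edgeR in the other comparisons. The log2 difference of Ep300 was -0.51 ± 0.29 for MC903 resident against untreated cells (edgeR adjusted p = 0.515). For bone marrow against MC903 resident cells it was -0.79 ± 0.31 (edgeR adjusted p = 0.180). Ncor1 was also lower without overlap in MC903 resident than in untreated cells, at means of 174 and 291.5 CPM, short of the threshold (log2 -0.74 ± 0.20, edgeR adjusted p = 0.0570), and its log2 difference between bone marrow and MC903 resident cells was -0.32 ± 0.21 (edgeR adjusted p = 0.457). Hdac1, the list's most abundant member per length, was at means of 86.7, 80.6 and 112 CPM in untreated, MC903 resident and bone marrow cells (edgeR adjusted p = 0.433 to 0.942).

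Genes listed here as commonly induced by TGF-β moved both ways, and whether each is induced in these cells was not tested. Of 12 tested, edgeR called 5 between bone marrow and untreated cells, 3 as higher (Bhlhe40, Mcpt1 and Mcpt2) and 2 as lower (Junb and Cited2), beside 3.49% and 3.37% of all genes. Between MC903 resident and untreated cells, where 1.68% of all genes were called as lower, 2 of the 12 fell: Cdkn1a, the cell cycle inhibitor p21, from 1246 to 666 CPM (log2 -0.90 ± 0.16, edgeR adjusted p = 0.00227) and Junb, a subunit of the AP-1 factor, from 4131 to 2242 CPM (log2 -0.88 ± 0.20, edgeR adjusted p = 0.0191). The Cdkn1a libraries did not overlap, nor did those of Junb. The Junb call was lost without library 2, 3, 6, 7 or 8 (adjusted p of 0.0575 to 0.0716).

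Between bone marrow and MC903 resident cells, Bhlhe40 and Mcpt1 were called as higher. Bhlhe40, a transcription factor, was at 497, 480.5, 421.5 and 345.5 CPM in bone marrow libraries and at 54.2 to 217 CPM in all resident libraries, a rise of 3.17-fold from MC903 resident (log2 1.67 ± 0.29, edgeR adjusted p = 0.00295) and 3.27-fold from untreated cells (log2 1.71 ± 0.29, edgeR adjusted p = 0.000671). Cited2, a regulator that binds the co-activators of the Smads, fell 3.56-fold from untreated to bone marrow cells (1235 to 347 CPM, log2 -1.83 ± 0.34, edgeR adjusted p = 0.00148). Junb fell 1.82-fold in the same comparison (edgeR adjusted p = 0.0161, but 0.126 with an offset for gene length). From MC903 resident to bone marrow cells the log2 differences were 0.016 ± 0.21 for Junb and -0.68 ± 0.32 for Cited2 (edgeR adjusted p = 0.981 and 0.273). Cited2 was at -1.15 ± 0.30 in MC903 resident against untreated cells, short of the threshold (edgeR adjusted p = 0.0526).

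The mucosal proteases for which the pathway is known split the bone marrow libraries. Mcpt1 was at 1272, 1760, 1.06 and 6.57 CPM in libraries 11, 13, 14 and 15, and at 0.677 to 1.89 CPM in all resident libraries. Mcpt2 was at 1938, 1476, 149.6 and 88.9 CPM in the same bone marrow libraries, at 36.4, 21.1, 7.84, 22.7 and 247 CPM in MC903 resident and at 4.17 to 6.05 CPM in untreated libraries. Tgif1 did not follow that split: libraries 11 and 14 had the highest Tgif1, and libraries 11 and 13 the highest Mcpt1 and Mcpt2. Libraries 11 and 13 also had the fewest genes with a count and the highest Mcpt8 (976 and 205 against 83.2 and 46.5 CPM) and Pecam1 (35.8 and 39.7 against 7.44 and 9.75 CPM). Cd200r3, Cdh5, Kdr and Vwf did not part the libraries that way, and the part of these differences in the split was not tested. Itgae, the αE integrin subunit, was at 0.709, 31.8, 6.89 and 1.92 CPM in bone marrow libraries and at most 6.69 CPM in resident ones.

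Mcpt1 was called against both resident groups (edgeR adjusted p = 0.0246 and 0.00797), with overlap in each. The first of these calls was lost without library 6, 7, 8, 9, 10, 11 or 13 (adjusted p of 0.0518 to 0.0702), when only the 2 groups were fitted (0.100) and with limma (0.350), and the second with limma (0.429). Mcpt2 was called against untreated cells (log2 7.45 ± 1.32, edgeR adjusted p = 0.00499, but 0.0822 with limma) and not against MC903 resident cells (0.120, but 0.0250 without library 10, 0.00632 by the DESeq2 Wald test and 0.0487 with limma). Itgae was not called by edgeR against untreated (adjusted p = 0.0644) or MC903 resident cells (0.478). The DESeq2 Wald test called it against untreated cells (adjusted p = 0.00351), as did edgeR without library 2, 11 or 15 (0.0478, 0.0410 and 0.0405). In MC903 resident against untreated cells the edgeR adjusted p-values of Mcpt1, Mcpt2 and Itgae were 0.947, 0.135 and 0.443, and Mcpt2 was called there by the DESeq2 Wald test (0.00348) and by edgeR when only the 2 groups were fitted (0.00691). Reads that the neighbouring protease genes share would make their separate values uncertain.

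**Figure D4:**
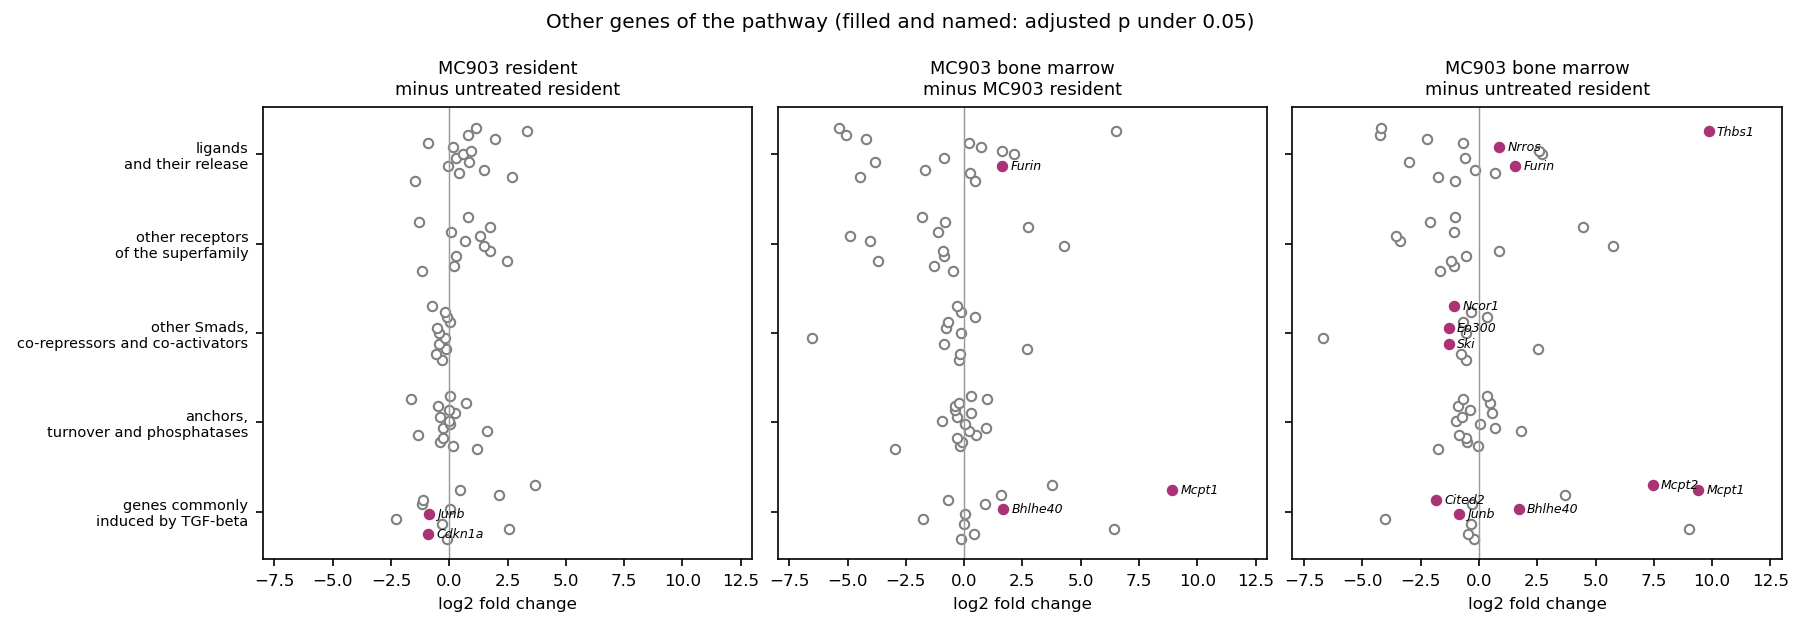
Log2 fold change (horizontal axis) of the 66 other pathway genes tested, in rows by list, for the 3 comparisons. Filled and named points have an edgeR adjusted p under 0.05: 2, 3 and 11 genes from left to right, the last with 6 higher and 5 lower.

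The genes whose pattern was most like that of Tgif1 over the 14 libraries were Sipa1 (Pearson r of log2 CPM 0.926), Rps3a2 (0.893) and Bcl2l11 (0.863), given as a description, since the libraries share groups and depth. Sipa1, a regulator of the small GTPase Rap, was at 80.5 to 89.5 CPM in bone marrow, 18.9 to 40.7 CPM in MC903 resident and 20.5 to 65.6 CPM in untreated libraries. Bcl2l11, which encodes the cell death factor Bim, was at 17.0 to 48.1, 0.630 to 9.58 and 6.57 to 21.7 CPM in the same order. Rps3a2 was at 11.6 to 17.1, 4.25 to 6.04 and 4.72 to 9.27 CPM, and its name is that of a copy of a ribosomal protein gene, so its reads may belong elsewhere.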

How the data were processed

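The authors deposited 1 table of raw counts, whole numbers of reads assigned to each gene, with exon positions, strand and gene length as further columns per the file headers. The submitters' processing notes name STAR, featureCounts and mm10; versions and the strand setting were not given in the sources used here. Of its 55487 identifiers 55094 had the same version and position in GENCODE M21, so coordinates are GRCm38, and 55394 had a symbol. From the counts, CPM (scaled by TMM factors) and RPKM (CPM per kilobase of the table's gene length) were computed. Libraries were grouped by the labels; their numbers run once through the series, and whether groups shared animals was not given in the sources used here, so no pairing was used.

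Low genes were removed by filterByExpr with the groups as design (10 counts, 15 in total). A single 3-group model (edgeR 4.0.16, R 4.3.3; glmQLFit, robust, then glmQLFTest) used every one of the 14 libraries. Benjamini-Hochberg adjustment ran over the 21014 genes left, and genes under 0.05 were called. The biological coefficient of variation was 1.15. The SE of a log2 difference is its size over the square root of F. The floor is 3 counts per library; amplified reads carry no molecular identifiers, so it covers counting error only. The code of the fit was also run on simulated counts with larger changes than most of those seen here. No result above rests on that run.

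The alternatives were DESeq2 1.42.0 size factors and its Wald test, limma 3.58.1 with voomWithQualityWeights, TMM computed on genes averaging 10 CPM or more, no filter, a filter at 10 CPM, an offset for gene length (20 bins), fits of the 2 groups compared and leaving out each library. Leaving out libraries 5 and 15 together was added after seeing the data. The members, lists and tests were chosen with earlier results of these data known. Named genes were all 10 members and, per list and comparison, the 3 highest and 3 lowest called, or else the gene with the highest length-scaled level; Mcpt1, Mcpt2 and Itgae always; and the 3 genes most correlated with a called member. Promoter windows came from RefSeq (GRCm38.p6) and were used for 5 of 10 members. Those on chromosome 18, which holds Smad2, Smad4 and Smad7, were left out, and none was found for Tgfbr3 and Skil.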

Additional observations from a re-analysis of the deposited data

Results flagged for a closer look

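In groups of 4 or 5 libraries, a single library stood far from the rest in 8 of the 80 gene and group combinations examined. The rule was Dixon's gap over the range, taken on CPM, above 0.829 for 4 and 0.71 for 5 libraries. Its rate of about 1 in 20 holds for normally distributed values. CPM need not be such, and the combinations share libraries, so the count is not set against chance. None was in the 30 combinations of the 10 members. Bambi was at 147 CPM in untreated library 1 against 2.74 to 38.8 CPM in the other 4, and at 64.3 CPM in MC903 resident library 6 against 2.27 to 7.46 CPM. Bhlhe40 was at 202 CPM in untreated library 1 against 105 to 123 CPM, and Ski at 118 CPM in untreated library 4 against 71.4 to 81.0 CPM. In MC903 resident cells, Cdkn1a was at 853 CPM in library 10 against 595 to 658 CPM, and Mcpt2 at 247 CPM in library 10 against 7.84 to 36.4 CPM. Library 7 was lowest for Mcpt1, at 0.808 CPM against 1.61 to 1.89 CPM, and highest for Thbs1, at 2.65 CPM against 0.339 to 0.519 CPM.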

How the results depend on the processing

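Of 547 alternative values for the 30 member differences, 496 kept direction and side of the threshold, 10 passed it newly and 41 changed sign; the causes were not tested. Both Tgif1 calls held throughout. Members called between MC903 resident and untreated cells numbered 1 with no filter, 1 with limma and 2 without libraries 5 and 15; between bone marrow and untreated cells, 2 with the Wald test, 4 without libraries 5 and 15, and 1 to 3 leaving out 1 library. Pathway genes called between MC903 resident and untreated cells numbered 6 (Wald), 5 (limma), 5 (2 groups only), 4 (without libraries 5 and 15) and 1 to 4 (leaving out 1 library; 1 without library 2, 4 without library 5). Between bone marrow and MC903 resident cells they numbered 5 (no filter), 5 (filter at 10 CPM), 13 (Wald), 9 (limma), 6 (without libraries 5 and 15) and 2 to 5 (leaving out 1 library; 2 without library 6, 5 without library 15), and between bone marrow and untreated cells 17 (Wald).

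DESeq2 size factors and TMM from genes of at least 10 CPM moved the median of all genes by 0.15 and 0.21 (log2) for MC903 resident against untreated cells and by -0.15 and -0.16 for bone marrow against MC903 resident cells. The sign changes follow, as log2 differences. For MC903 resident against untreated cells, Tgfbr3 became 0.11 (DESeq2 size factors, and 0.11 by Wald), 0.16 (TMM from 10 CPM), 0.12 (length offset), 0.16 (filter at 10 CPM) and 0.018 (2 groups only), and ran from -0.30 to 0.16 leaving out 1 library; Smad3 became 0.11 (size factors, and 0.11 by Wald), 0.18 (TMM from 10 CPM), 0.074 (length offset) and 0.10 (without libraries 5 and 15), and ran from -0.71 to 0.42; Hdac1 became 0.012 (size factors), 0.060 (TMM from 10 CPM), 0.060 (filter at 10 CPM) and 0.013 (Wald), and ran from -0.31 to 0.071; Bambi ran from -3.03 to 0.17. For bone marrow against MC903 resident cells, Tgfbr1 became 0.065 (limma) and ran from -0.30 to 0.038, Tgfbr2 from -0.27 to 0.091, Smad3 from -2.14 to 0.18, Bambi from -1.66 to 0.93 and Itgae from -0.16 to 1.98; Strap became 0.079 (without libraries 5 and 15) and ran from -0.41 to 0.18. For bone marrow against untreated cells, Smad2 became 0.0037 (TMM from 10 CPM, and 0.0037 with the filter at 10 CPM), 0.040 (length offset), 0.068 (limma) and 0.10 (without libraries 5 and 15), and ran from -0.22 to 0.25; Smad4 became -0.097 (without libraries 5 and 15) and ran from -0.12 to 0.25; Skil became -0.34 (without libraries 5 and 15). No paired analysis was possible because the library numbers run once through the series, so no number is shared between groups, and shared animals are not known. Each arm held 4 or 5 libraries. Smad3, with 0 to 342 reads a library, had SEs of 1.24 to 1.32 on the log2 scale, the widest of the 10 genes.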
